A study of Homo sapiens with 6 samples.

Results

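LaminB1 regions on human chromosome 18 were taken as every row for that chromosome in the 4 deposited lists of called LaminB1 regions. There were 403 of 12410 regions in double loss 1, 402 of 12242 in double loss 2, 368 of 10771 in control 1 and 433 of 13599 in control 2. No measured value entered this choice. The libraries came from CUT&RUN, in which an antibody directs a nuclease to cut and release the chromatin it is bound to, in HCT116, a human colorectal carcinoma line. All cells carried the mini auxin-inducible degron (mAID) on both endogenous TOP2A alleles and were arrested in G1 by palbociclib (2 uM, 28 h). The double loss cells were also TOP2B -/- by CRISPR/Cas9 and received auxin (indole-3-acetic acid, 500 uM, 8 h), with a stated TOP2A loss of up to 95%. The region lists cannot check the loss of either protein. The control cells, labelled wildtype, were the TOP2A mAID line without auxin. The groups have 2 LaminB1 libraries each, beside 1 IgG library each. Whether the knockout line was a single clone, and whether replicates were separate cultures, is not given in the sources used here, so p-values measure the spread between libraries, which may be technical.

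LaminB1 is a B-type lamin of the nuclear lamina, the protein mesh under the inner nuclear membrane. Sequence that touches the lamina forms lamina-associated domains, which are mostly gene-poor, AT-rich and little transcribed. Chromosome 18 is the textbook gene-poor chromosome that lies towards the nuclear edge, and gene-dense chromosome 19, of similar size, lies towards the centre. TOP2A and TOP2B, the type II topoisomerases, pass one DNA duplex through another and so relieve supercoils and tangles. In the gene table used, chromosome 18 had 270 protein-coding genes, or 3.36 per Mb, against 24.8 per Mb on chromosome 19.

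Gene starts inside LaminB1 regions had fewer CG dinucleotides, at the median, than starts outside them. Promoter windows, the 250 bases before the start site in RefSeq (GRCh38.p14), were matched for 234 of the 270 genes. The start site lay in at least 1 list for 26 genes, whose windows had a median G+C share of 46.0% and a median of 4 CG dinucleotides. Among them were 3 genes with a start in all 4 lists, DYNAP, BOD1L2 and LOC105372204. The start site lay in no list for 208 genes, with medians of 65.6% G+C and 21 CG. CG reads the same on both strands, and 229 of the 234 windows (97.9%) held at least 1. The windows below show 1 start inside all 4 lists, 1 inside both control lists but outside the double loss lists, and 1 outside every list in a gene with much covered sequence further along. DYNAP is at chr18:54587509-54587758 on the plus strand, DIPK1C at chr18:74457309-74457558 on the minus strand and DCC at chr18:52339947-52340196 on the plus strand. The DYNAP and DIPK1C start sites in that table lie 12.1 and 7.34 kb inside the longest extent of the gene, which was used for gene body coverage. Each window is printed 5′ to 3′ with CG in capitals.
DYNAP: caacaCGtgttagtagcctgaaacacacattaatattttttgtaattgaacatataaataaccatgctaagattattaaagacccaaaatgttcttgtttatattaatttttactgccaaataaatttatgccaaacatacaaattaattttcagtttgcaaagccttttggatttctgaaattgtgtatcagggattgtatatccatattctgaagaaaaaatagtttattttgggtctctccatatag
DIPK1C: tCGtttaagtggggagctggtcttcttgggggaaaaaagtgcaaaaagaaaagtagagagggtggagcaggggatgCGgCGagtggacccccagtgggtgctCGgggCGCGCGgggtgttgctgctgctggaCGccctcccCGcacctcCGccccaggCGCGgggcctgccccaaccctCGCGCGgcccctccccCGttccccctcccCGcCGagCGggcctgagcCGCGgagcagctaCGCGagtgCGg
DCC: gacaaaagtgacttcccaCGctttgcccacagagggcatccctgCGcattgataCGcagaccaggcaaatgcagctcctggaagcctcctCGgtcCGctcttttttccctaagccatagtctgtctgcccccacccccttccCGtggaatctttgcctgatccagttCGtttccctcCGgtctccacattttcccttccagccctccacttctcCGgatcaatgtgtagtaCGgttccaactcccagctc
The DYNAP window had 1 CG and 27.6% G+C, the DCC window 10 CG and 56.0% G+C, and the DIPK1C window 24 CG and 70.4% G+C. A start inside a region did not always come with few CG: GALR1, a galanin receptor, had 35 CG and its start lay in 1 control list. CHST9, a sulfotransferase, had 27 and its start also lay in 1 control list. The promoter values are descriptions with no test.

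LaminB1 regions covered a larger share of chromosome 18 than of chromosome 19. The covered share of chromosome 18 was 15.2% and 16.6% in the double loss libraries, against 15.1% and 12.6% in the control libraries. On chromosome 19 it was 1.47% and 1.70% in double loss, against 0.599% and 0.667% in control. Chromosome 18 was above chromosome 19 in each of the 4 libraries, by 13.8 ± 1.3 percentage points (SD, n = 4; exact sign-flip permutation test, two-sided p = 0.13, the smallest that 4 libraries allow). Chromosome 18 was nevertheless below the rest of the genome, which had 20.3% and 20.6% in double loss and 19.7% and 18.3% in control. Among the 22 autosomes it ranked between 13 and 16 from the highest share in every list.

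Between the groups, the covered share of the whole chromosome was barely separated: the lower double loss library, at 15.15%, lay just above the higher control library, at 15.09%. The share averaged 15.9% ± 1.0 in double loss and 13.9% ± 1.8 in control (SD, n = 2 each), a difference of 2.02 points (exact permutation test, two-sided p = 0.33, the smallest that 2 against 2 libraries allow). The covered length was 12.2 and 13.3 Mb in double loss, against 12.1 and 10.1 Mb in control. Control 2 was the low library, and without it the difference was 0.784 points. Set against the other chromosomes of the same library, chromosome 18 differed between groups by 0.563 points (exact permutation p = 0.667). When each list was cut to its upper 50% of regions by log2 fold, the order turned: 4.80% and 5.11% in double loss, against 7.04% and 5.35% in control.

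Chromosome 18 regions were numerous and short, with few LaminB1 reads per kb. There were 5.02 and 5.01 regions per Mb in double loss and 4.59 and 5.40 in control, against autosome medians of 3.93 and 3.82 in double loss and 3.65 and 4.63 in control. The median width was 24 and 26 kb in double loss and 26 and 19 kb in control, so the groups overlapped. On the other chromosomes it was 29 and 30 kb in double loss and 30 and 22 kb in control, so the median was lower on chromosome 18 by 3 to 5 kb in all 4 libraries (exact sign-flip p = 0.13). Chromosome 19, with few regions, had similar medians of 25 and 23 kb in double loss and 23 and 19 kb in control. On chromosome 18, long regions of at least 100 kb held 6.09% and 6.03% of the called sequence in double loss and 9.77% and 5.25% in control. The autosome medians of that share were 27.2% and 31.3% in double loss and 38.5% and 27.7% in control.

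Inside its regions chromosome 18 had the lowest LaminB1 read density of the 22 autosomes in every list. The density was 12.06 and 12.04 reads per kb in double loss, against 11.12 and 11.92 in control. Chromosome 14 was next in every list, at 12.31 and 12.28 in double loss and 11.16 and 11.93 in control. The autosome medians of LaminB1 density were 12.96 and 13.03 in double loss and 12.05 and 12.84 in control. The chromosome 18 density lay below that of the other chromosomes of the same library, pooled, by 1.35 reads per kb on average, in 4 of 4 libraries (exact sign-flip p = 0.13). As a multiple of the density over all regions of the library it was 0.902 and 0.897 in double loss and 0.896 and 0.900 in control, and the groups overlapped. The control library counts in the same regions were 8.39 and 8.37 per kb in double loss and 6.40 and 6.43 per kb in control. They were near the autosome medians of 8.39 and 8.38 in double loss and 6.499 and 6.54 in control. Set against the other chromosomes of the same library, they differed by -0.478 and -0.469 per kb in double loss and -0.542 and -0.545 in control. The median log2 fold of chromosome 18 regions was 0.467 and 0.438 in double loss and 0.527 and 0.577 in control. Autosome medians of it were 0.481 and 0.468 in double loss and 0.524 and 0.576 in control. Genome-wide, replicate lists gave identical control library counts for 105 of 105 regions whose edges matched, against 3 of 154 such regions across groups. These counts were therefore read as 1 control library per group, and the gap between groups in them has no replicate check. Chromosome 18 held 146654 and 160494 LaminB1 reads in double loss and 134753 and 120678 in control. The depth outside regions is unknown.

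**Figure D1:**
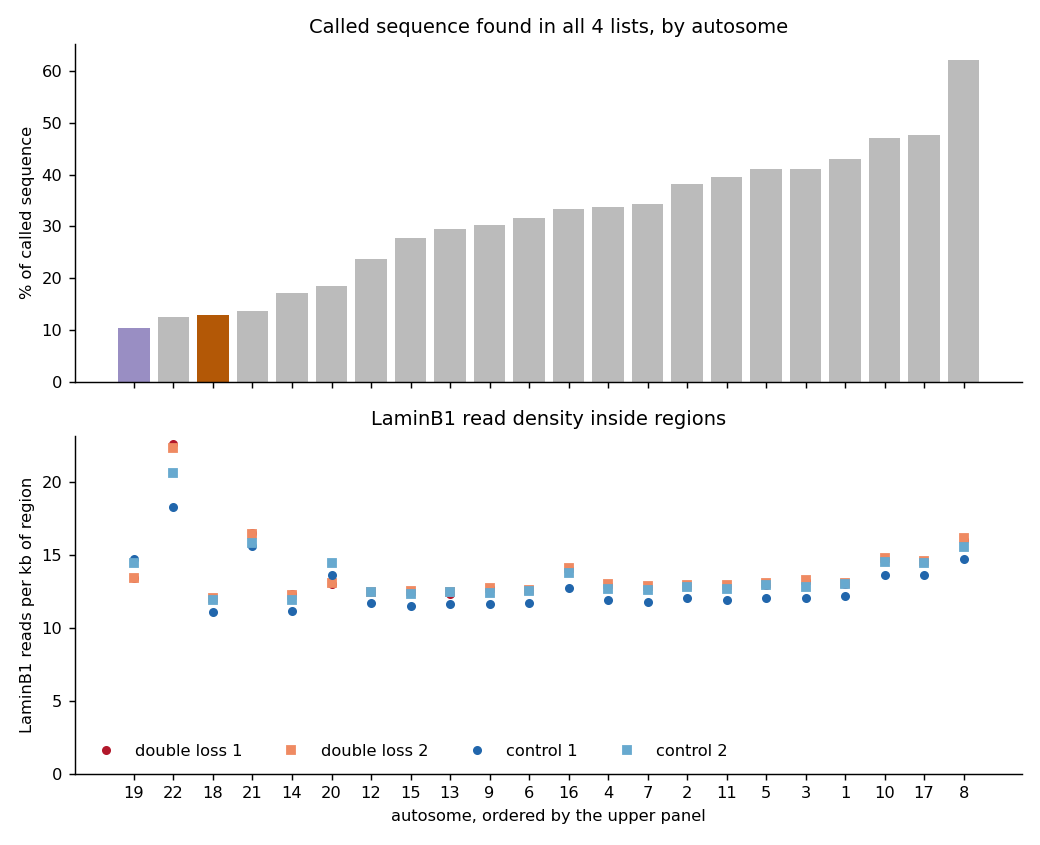
Upper panel: share (%) of the sequence called in any list that was called in all 4 lists, for each of the 22 autosomes; chromosome 18 is orange, chromosome 19 purple and the others grey. Lower panel: LaminB1 reads per kb of region, 1 point per library (red and salmon, double loss 1 and 2; dark and light blue, control 1 and 2). Chromosome 18 has 12.9% of its called sequence in all 4 lists and the lowest read density in each library, with chromosome 14 close above it in control.

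The lists shared little of chromosome 18. Of 22.9 Mb called in at least 1 list, 2.96 Mb (12.9%) was in all 4, against an autosome median of 32.5%. Little was shared on chromosomes 19, 21 and 22 as well, at 10.3%, 13.6% and 12.5%. The share in a single list was 38.6% on chromosome 18, against 61.9% on chromosome 19 and an autosome median of 26.3%. On chromosome 18 the Jaccard index, shared over combined length, was 0.424 for the double loss lists, 0.394 for the control lists and 0.3334 to 0.367 across groups. Every one of these 6 values was among the 5 lowest of the autosomes, whose medians ran from 0.517 to 0.598. Replicates of a group thus shared more than lists of different groups, by 6.14 percentage points of combined length on average, but lists of a group also appear to share their control library, whose part in this was not tested. Sequence that both double loss lists held and no control list did came to 1.87 Mb in 211 stretches, and the reverse to 1.26 Mb in 150 stretches. Most other autosomes also had more sequence in double loss alone than in control alone, so this excess was not particular to chromosome 18. In 100 kb bins both double loss lists lay above both controls in 27.1% on chromosome 18, against 24.5% of all bins. They lay below in 16.0%, against 15.6% of all bins. On chromosome 18 the balance of length turned when each list kept its upper 50% of regions by log2 fold. It was then 0.612 Mb in double loss alone and 1.34 Mb in control alone. Sequence in 1 list of each group and no other came to 0.612, 0.742, 0.760 and 1.04 Mb for the 4 possible pairs.

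Coverage was uneven along both arms. The p arm, up to the gene-free gap around the centromere, was covered to 12.2% and 13.4% in double loss, against 8.08% and 5.84% in control. The q arm was covered to 17.3% and 18.97% in double loss, against 18.3% and 15.6% in control. Double loss was thus above both controls on the p arm, by 5.88 points (exact permutation p = 0.33), while the groups overlapped on the q arm. In the gap itself, chr18:15330264-20946905, regions covered 0.516% and 0.338% in double loss and 0 and 0.0356% in control. No region was called in the last window, which holds the end of the q arm beyond 80 Mb, in any list.

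Across 5 Mb windows the largest changes lay at opposite ends of the chromosome. The first 5 Mb of the p arm was covered to 27.2% and 30.5% in double loss, against 14.6% and 11.1% in control, a rise of 16.0 points (limma over all windows of the genome, adjusted p = 0.000154). The window from 75 to 80 Mb, near the q-arm end, was covered to 23.1% and 24.4% in double loss, against 37.8% and 32.7% in control, a fall of 11.5 points (limma adjusted p = 0.00208). Of 14 windows tested on chromosome 18, 4 rose and 1 fell, while over all 420 windows of the genome 33.3% rose and 12.9% fell. The other windows that rose were 50 to 55 Mb, at 30.4% and 33.3% in double loss against 23.8% and 22.1% in control (adjusted p = 0.00437), and 40 to 45 Mb, at 18.9% and 17.6% in double loss against 13.6% and 10.2% in control (adjusted p = 0.00965). The smallest was 65 to 70 Mb, at 6.40% and 6.46% in double loss against 3.18% and 3.92% in control (adjusted p = 0.0339). Without overlap between groups, double loss lay above in 6 windows and below in 2, against 50.2% and 23.6% of all windows. These window tests were chosen after the window values had been seen. With lists cut to equal region number none of the 5 windows passed, although each kept its direction: the first window differed by 15.4 points (adjusted p = 0.102) and the window from 75 Mb by -15.0 (adjusted p = 0.154). With the upper 50% of regions the window from 50 Mb turned to -3.74 points, and the first window differed by 6.08 points (adjusted p = 0.0916). The first window passed whichever library was left out (adjusted p from 0.00703 to 0.0184). The window from 75 Mb missed the threshold without double loss 1 (adjusted p = 0.062). The window from 40 Mb missed it without double loss 1, double loss 2 or control 2 (adjusted p = 0.128, 0.0835 and 0.0712), that from 50 Mb without double loss 2 or control 2 (0.104 and 0.0512), and that from 65 Mb whichever library was left out (0.0845 to 0.13) and with the replicate number as a block (0.0584).

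**Figure D2:**
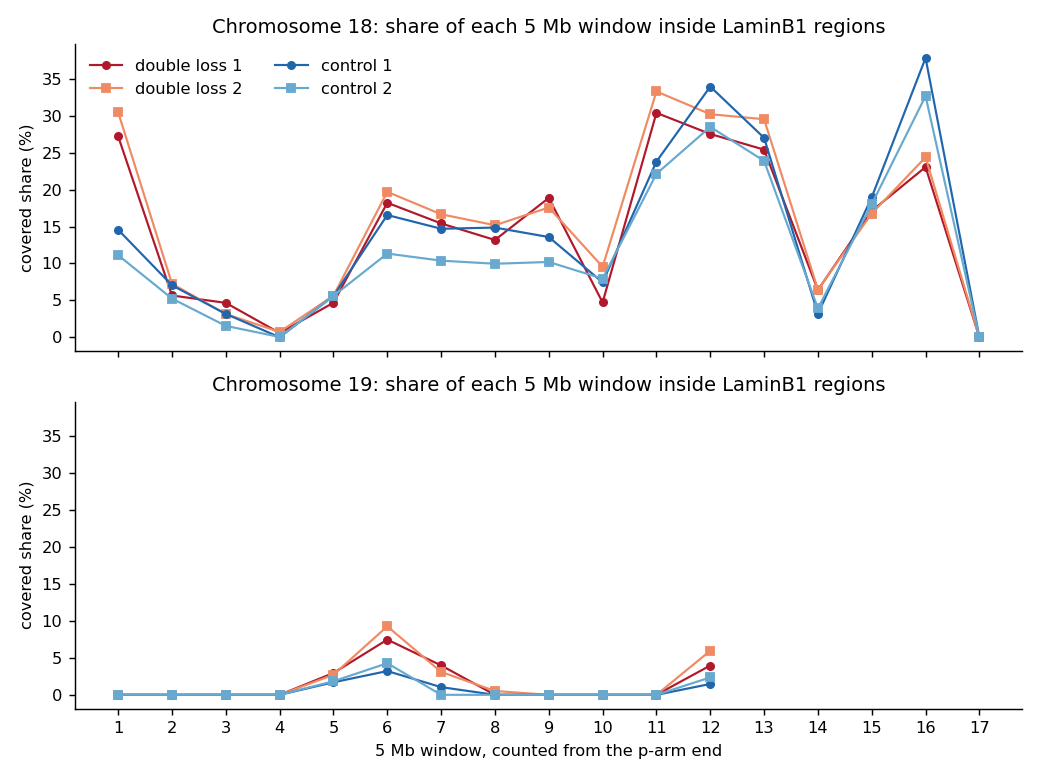
Share (%) of each 5 Mb window inside LaminB1 regions, with windows counted from the p-arm end, for chromosome 18 (upper) and chromosome 19 (lower); lines are the 4 libraries (red and salmon, double loss 1 and 2; dark and light blue, control 1 and 2). Double loss is above control in window 1 and below it in window 16, and chromosome 19 stays at or below 9.28% throughout.

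At this scale coverage and gene content had a correlation near 0. Over 15 windows the Spearman correlation between protein-coding gene starts and the mean covered share was -0.08, a description with no test, in windows that share the same 4 libraries. The first window, with 22 gene starts, was among the most covered in double loss, and the window from 65 to 70 Mb, with 7, among the less covered. Within the first window the covered sequence lay mostly between genes. Gene bodies held 18.1% and 15.4% of its covered sequence in double loss and 14.3% and 17.3% in control, against 43.3% of the whole window. Over the whole chromosome, gene bodies held 29.1% and 28.3% of the covered sequence in double loss and 28.9% and 31.9% in control. They held 26.1% of the sequence in all 4 lists, and 43.7% of the sequence in no list outside the gene-free gap.

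Read density inside regions varied little among the 14 windows with at least 100 kb called in every list, to which the densities of this paragraph refer. Of these, the window from 55 to 60 Mb had the highest LaminB1 density in each library, with 13.3 and 13.2 reads per kb in double loss and 12.3 and 13.1 in control. The lowest windows had 11.3 and 11.5 in double loss and 10.5 and 11.1 in control. Control library density also peaked from 55 to 60 Mb in each library. It was 9.20 and 9.16 per kb there in double loss and 6.94 and 7.13 in control. Raw LaminB1 over control library reads was 1.45 and 1.44 there in double loss and 1.77 and 1.83 in control. The window medians of this ratio were 1.42 and 1.43 in double loss and 1.74 and 1.84 in control. In edgeR's quasi-likelihood test of reads per called kb, 2 of 14 windows rose and 1 fell, while 17.8% of 398 windows of the genome rose and 13.3% fell. On the log2 scale the differences were 0.05 for 0 to 5 Mb (adjusted p = 0.0248), 0.06 for 40 to 45 Mb (adjusted p = 0.0174) and -0.06 for 70 to 75 Mb (adjusted p = 0.0062). DESeq2 called 0 of the 14 windows, while it called 10.3% of the 398 windows higher and 7.79% lower. With the replicate number as a block, edgeR called 1 higher and 1 lower, against 12.8% and 11.3% of all windows. The window from 75 to 80 Mb, where coverage fell, had 11.8 and 11.8 reads per kb in double loss and 11.0 and 11.8 in control (log2 difference -0.01, adjusted p = 0.558). As raw counts, not scaled for depth, LaminB1 reads outnumbered control library reads by 1.31 to 1.505 times in double loss windows and by 1.59 to 1.93 times in control windows. Control library density in double loss over that in control was 1.33 in the first window, 1.35 in the window from 75 Mb and 1.27 over all regions. The part of the control libraries in the coverage differences was not tested.

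**Figure D3:**
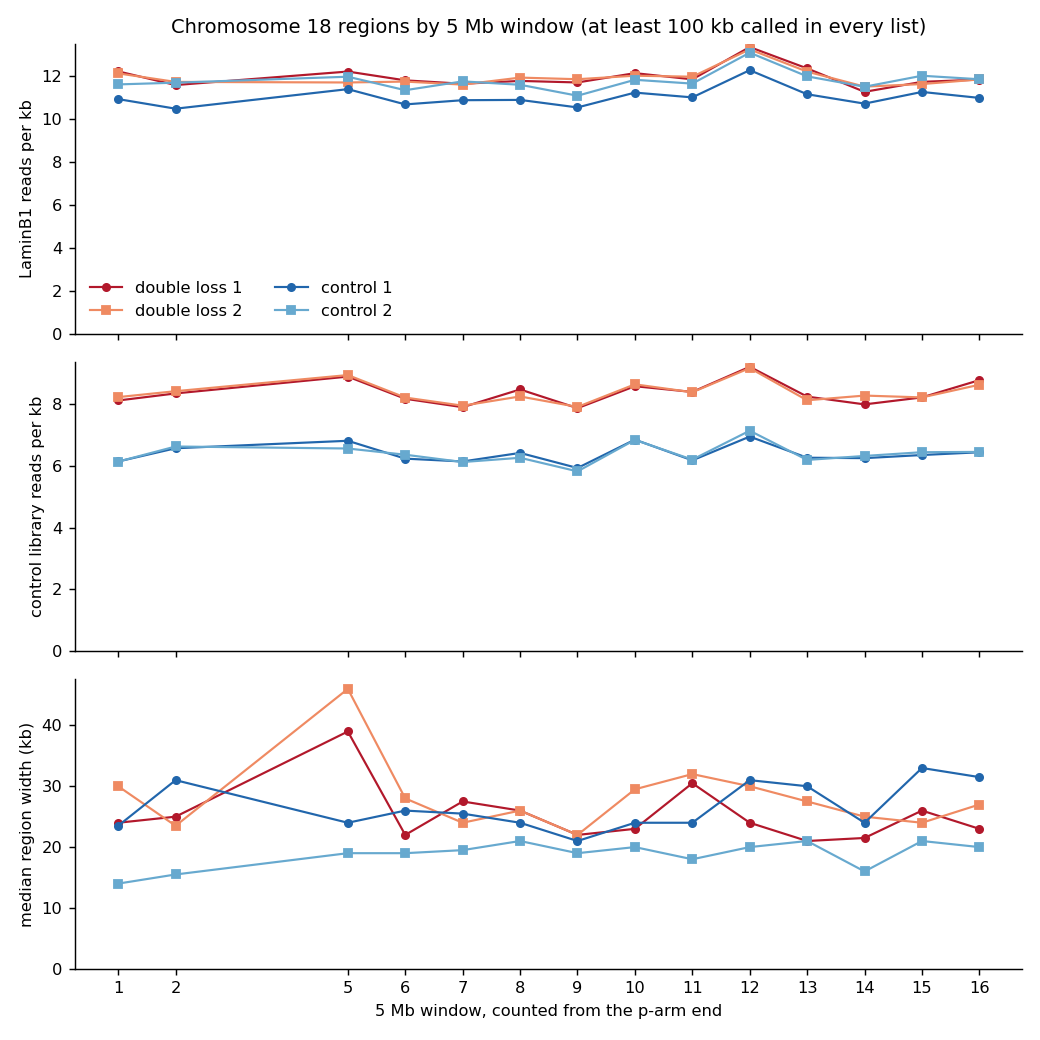
LaminB1 reads per kb of region (top), control library reads per kb of region (middle) and median region width in kb (bottom) for chromosome 18 windows of 5 Mb with at least 100 kb called in every list, counted from the p-arm end; colours mark the libraries as labelled. The LaminB1 and control library lines all peak in window 12, the control library lines separate by group, and control 2 has the narrowest regions in most windows.

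Sequence called in all 4 lists fell into 259 stretches with a median of 9 kb, and a single one was much longer than the rest. It was chr18:57001001-57260000, 259 kb over part of WDR7, a WD-repeat protein, and all of BOD1L2. That stretch lay inside the longest chromosome 18 region of every list, which measured 424 and 377 kb in double loss, against 276 and 271 kb in control. These regions were dense in reads, with 16.3 and 16.5 LaminB1 reads per kb in double loss and 17.3 and 18.3 in control. Control library density was also high there, at 11.4 and 11.6 per kb in double loss and 9.53 and 9.59 in control. As a single call, the region reached further out on both sides in double loss, as chr18:56961001-57385000 and chr18:56960001-57337000, against chr18:57001001-57277000 and chr18:56989001-57260000 in control. The control lists also held sequence beyond these edges, as separate regions: chr18:57292001-57337000 and chr18:57358001-57385000 were in all 4 lists. In the bin chr18:57300001-57400000 coverage was 85% and 87% in double loss, against 96% and 86% in control. The next stretches in all 4 lists were chr18:61651001-61714000 (63 kb) and chr18:61726001-61772000 (46 kb), both between CDH20 and RNF152. They were followed by chr18:57292001-57337000 (45 kb), between BOD1L2 and ST8SIA3, and chr18:25412001-25442000 (30 kb), 59.8 kb from ZNF521. None of these 4 overlapped a protein-coding gene. On chromosome 19, 5 stretches with 0.161 Mb in all were in 4 lists, the longest being chr19:24331001-24415000 (84 kb), chr19:27336001-27401000 (65 kb) and chr19:27296001-27302000 (6 kb), all between ZNF254 and UQCRFS1.

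Stretches called in both lists of a single group, and in neither list of the other, were short. Among those gained in double loss, the longest was chr18:27074001-27120000 (46 kb), inside CHST9. The next were chr18:991001-1033000 (42 kb) and chr18:1457001-1490000 (33 kb), both between ADCYAP1, which encodes the neuropeptide PACAP, and METTL4. Among those lost, that is called in both controls alone, the longest were chr18:75692001-75724000 (32 kb), between SMIM21 and LOC105372204, and chr18:76265001-76297000 (32 kb), between LOC105372204 and ZNF516. The next was chr18:27018001-27048000 (30 kb), again inside CHST9. A gained and a lost stretch thus lay side by side in the same gene. In the 100 kb bins limma called 0 of 388 chromosome 18 bins higher and 0 lower, against 0.642% and 0.296% of 12153 bins in the genome. At an unadjusted p under 0.05 there were 44 higher and 29 lower, and the lowest adjusted p was 0.0606. Without double loss 1 or double loss 2, 47 bins were called higher, against 11.97% and 11.7% of all bins. Groups did not overlap in 105 bins with double loss above (27.1%, against 24.5% of all bins) and in 62 with double loss below (16.0%, against 15.6%).

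Of the 270 protein-coding genes, 194 had no covered sequence in any list, 76 were covered in at least 1 and 38 in all 4. None passed the limma test of gene body coverage, which called 0 higher and 0 lower, against 1.67% and 0.981% of 3058 covered genes in the genome. At an unadjusted p under 0.05 there were 6 higher and 8 lower. Without control 2, 14 of 72 genes were called lower, against 7.76% of all genes, and without control 1, 11 of 68, against 7.64%; in those fits a lone library stands for its group. The groups did not overlap for 14 genes with double loss above (18.4%, against 21.5% of all covered genes) and for 18 with double loss below (23.7%, against 13.9%). The gene values that follow are therefore levels per library and no calls.

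Among genes of at least 20 kb, taken at most once per 1 Mb, the widest separation upward in double loss was seen in ZNF521, DOK6 and DCC, long genes with covered sequence in every library. ZNF521, a zinc finger transcription cofactor, had 67.5% and 79.6% of its body inside regions in double loss, against 21.04% and 39.97% in control (difference 43.1 points, limma adjusted p = 0.292). DOK6, an adaptor of receptor tyrosine kinase signalling, had 35.3% and 36.8% in double loss, against 20.1% and 18.5% in control. DCC, the netrin receptor of axon guidance, had 26.6% and 22.7% in double loss, against 8.11% and 8.94% in control (difference 16.1 points, adjusted p = 0.190). That both double loss lists lay above both control lists in these 3 genes follows from how they were picked. DLGAP1, a postsynaptic scaffold protein in the first 5 Mb, had 23.04% and 23.6% in double loss, against 10.5% and 8.65% in control. NOL4 had 14.7% and 18.99% in double loss, against 4.82% and 4.01% in control. EPB41L3, a membrane-cytoskeleton linker, had 10.5% and 9.49% in double loss and was at 0 in both control lists. LOC124904304 and RNF152, a ubiquitin ligase, completed the set with gaps of 6.36 and 3.40 points between the lowest double loss and the highest control library.

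In the other direction, by the same limits of size and spacing, the widest separation was near the q-arm end and in a serpin cluster. DIPK1C had 37.6% and 0% of its body inside regions in double loss, against 100% and 92.5% in control (difference -77.5 points, limma adjusted p = 0.304), and its start lay in both control lists but outside the double loss lists. SERPINB11 was at 0 in both double loss lists, against 44.9% and 77.3% in control (adjusted p = 0.152). ZNF236, a zinc finger protein, was at 0 in both double loss lists, against 41.9% and 19.95% in control. CELF4, a neuronal RNA-binding protein, was also at 0 in both, against 10.8% and 8.67% in control. WDR7, CCBE1 (a factor of lymphatic vessel growth), CHST9 and KLHL14 differed by smaller gaps, of 2.66 to 3.37 points between the nearest libraries of the groups. When the upper 50% by log2 fold was kept, CCBE1 and CHST9 turned, to differences of 2.44 and 5.38 points. AQP4, an aquaporin shorter than the size limit for naming, was picked after its values were seen: it was at 0 in both double loss lists, against 100% and 42.2% in control. Among the 27 genes that start from 74 to 80 Mb, 15 were covered in at least 1 list. Double loss lay below both controls in 6, FBXO15, DIPK1C, CNDP1, ZNF407, TSHZ1 and ZNF236, and above in 2, against 13.9% below and 21.5% above of all covered genes; this span was chosen after the values were seen.

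**Figure D4:**
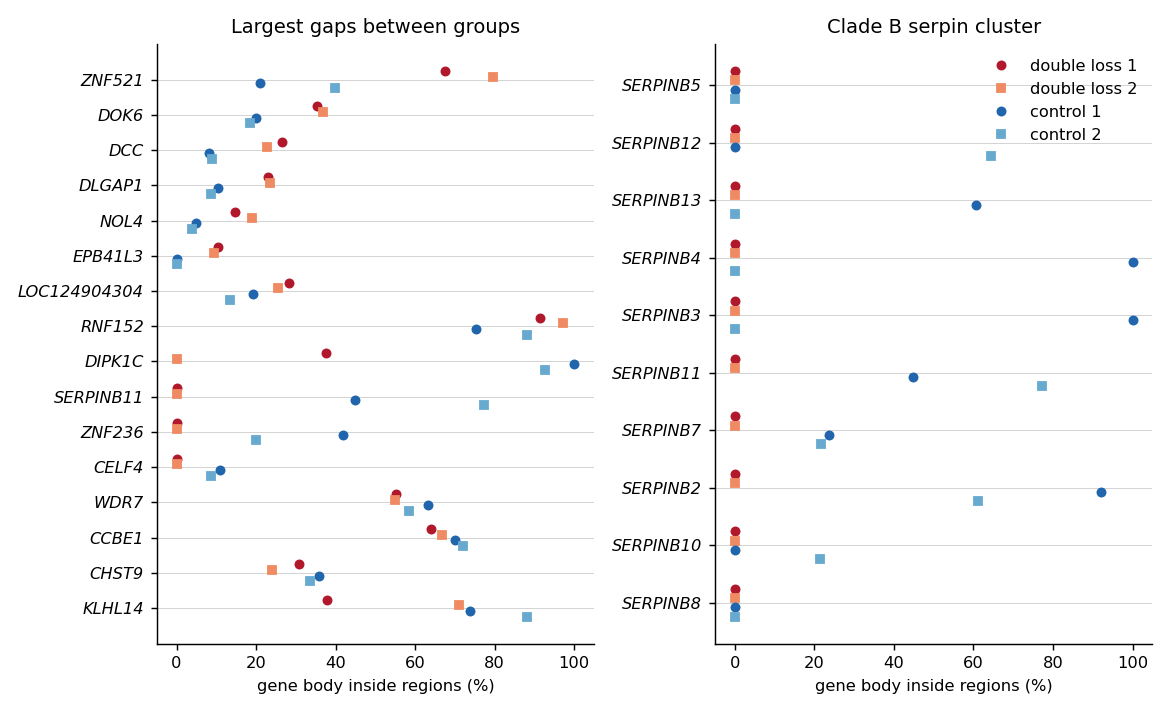
Share (%) of each gene body inside LaminB1 regions, 1 point per library (red and salmon, double loss 1 and 2; dark and light blue, control 1 and 2). Left: the 8 genes of at least 20 kb with the widest separation in each direction, at most 1 per 1 Mb, upward ones on top. Right: the 10 clade B serpins in genome order, all at 0 in both double loss lists and 8 of them above 0 in at least 1 control list.

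The clade B serpins, intracellular serine protease inhibitors and their relatives, form a cluster at chr18:63476958-64019779. All 10 listed members were at 0 in both double loss lists, while 8 had covered sequence in at least 1 control list and 3 in both. Double loss thus lay below both controls in 3 members. That held for 13.9% of all covered genes and 23.7% of those on chromosome 18. The list was written with earlier results of these data known. SERPINB2, the plasminogen activator inhibitor of type 2, had 0 and 0% of its body in regions in double loss, against 92.0% and 61.1% in control (limma adjusted p = 0.141). SERPINB7 had 0 and 0% in double loss, against 23.6% and 21.7% in control, and with an adjusted p of 0.0684 was the lowest of all chromosome 18 genes. SERPINB3 and SERPINB4, the squamous cell carcinoma antigens, were inside regions over their whole length in control 1 and at 0 in the other lists. They are near-identical copies, and how reads matching both were treated is not given in the sources used here. SERPINB12 and SERPINB10 were covered in control 2 alone and SERPINB13 in control 1 alone, while SERPINB5 and SERPINB8, at the ends of the cluster, were at 0 in all 4 lists. As 1 locus of 543 kb, the cluster was covered to 0 and 0% in double loss, against 31.1% and 23.2% in control (exact permutation p = 0.33). Neighbouring members share regions and are no replicates of each other: the control regions numbered 5 and 7 and measured 13 to 41 kb. Each held 165 to 424 LaminB1 reads against 84 to 259 control library reads.

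Of the other gene lists, 2 hold cadherins, on a chromosome where 194 of 270 genes were at 0 in every list. All 7 desmosomal cadherins, the DSC and DSG genes that hold epithelial cells together, were at 0 in all 4 lists. Of 4 other cadherins, CDH20 had 70.3% and 62.2% in double loss, against 71.5% and 85.3% in control, and CDH2, N-cadherin, had 6.96% in double loss 1 and 0 in the other lists. CDH7 and CDH19 were at 0 throughout. Among 6 genes of the long arm studied in colorectal cancer or apoptosis, the TGF-beta pathway genes SMAD2, SMAD4 and SMAD7 and the signalling protease gene MALT1 were at 0 in all 4 lists. BCL2, an inhibitor of apoptosis, had 15.2% in control 1 and 0 in the other lists, which leaves DCC as the covered member of that list in every library.

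Among 21 listed neuronal and developmental genes, 15 were covered in at least 1 list and 11 in all 4. Of all 270 genes these numbers were 76 and 38. No test was made, the list was written with earlier results of these data known, and gene length was not matched. That list also holds CCBE1 and FBXO15, which are not known mainly from neurons. Double loss lay above both controls in 3 of them and below in 4, CCBE1 and FBXO15 among the 4, against 21.5% above and 13.9% below of all covered genes. TCF4, a transcription factor of neural development, had 29.2% and 30.2% in double loss, against 29.2% and 22.4% in control. MC4R, the melanocortin receptor of appetite control, is a short gene and had 45.2% and 100% in double loss, against 100% and 0% in control. GALR1 had 85.2% and 56.7% in double loss, against 85.7% and 60.2% in control. In these 3 genes the groups overlapped or touched. ONECUT2 had 64.9% and 0% in double loss, against 76.9% and 59.5% in control. Of 28 widely expressed genes, 26 were at 0 in all lists, among them TYMS, the thymidylate synthase. PIGN, of GPI-anchor synthesis, had 11.2% and 11.4% in double loss, against 15.3% and 12.03% in control. CYB5A, cytochrome b5, had 92.8% and 66.0% in double loss, against 100% and 61.2% in control.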

How the data were processed

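Alignment of the LaminB1 CUT&RUN read pairs (75 bp) used Bowtie2 2.3.4.3 and hg38, and Picard was applied, as the submitters' processing notes say; which program called regions is not given in the sources used here. Of 6 samples, the 4 LaminB1 libraries have 1 region list each, on a 1 kb grid. The authors deposited for each region whole-number counts of LaminB1 and of control library reads. They also deposited a log2 fold change, a score, and raw and adjusted p-values, and the score equals 100 times the log2 fold in every region. Lists were called per library, and fold changes were used to rank regions within a list.

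Coverage was computed in 1 kb steps with Python 3.11.15, numpy 2.4.6 and pandas 2.3.3, and printed positions count from 1. Genes and promoters are from RefSeq GRCh38.p14, which shares primary coordinates with hg38. A list symbol, C18orf21, was matched as RMP24. Covered shares of 100 kb bins (at least 5% in 1 library), covered genes and 5 Mb windows were arcsine square root transformed and compared by limma 3.58.1 (R 4.3.3, trended variance). LaminB1 counts summed over 5 Mb windows (100 kb or more called in every list) were compared with edgeR 4.0.16, with called kb and library density as offset, and with DESeq2 1.42.0. Fits covered chromosomes 1 to 22 and X, with Benjamini-Hochberg adjustment and a threshold of 0.05. The edgeR fit, with median-window scaling, and the limma fit of 100 kb bins were also run on simulated data. The limma fits of genes and of 5 Mb windows and the DESeq2 fit were not. Values per library were compared by exact two-sided permutation tests (scipy 1.17.1). Named genes were those of at least 20 kb with the 8 widest gaps in each direction, no more than 1 in any 1 Mb, and list members; other genes were named after their values were seen. Members and lists were chosen with earlier results of these data known. Group, control library and cell line cannot be told apart.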

Additional observations from a re-analysis of the deposited data

How the results depend on the processing

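Keeping the upper 50% by log2 fold, the difference in covered share became -1.24 points, that against the other chromosomes -2.01 points and that in relative LaminB1 density -0.0154; CCBE1 (2.44 points), CHST9 (5.38 points) and the window from 50 Mb (-3.74 points) also turned. These changes follow a cut that keeps other regions in each list; the cause was not tested. Sequence in both lists of 1 group was 0.612 Mb gained and 1.34 Mb lost with that cut, 1.65 and 1.57 Mb at equal region number, and 1.85 and 1.29 Mb after merging within 5 kb.

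Bins called were 2 higher and 1 lower after merging (all bins: 1.21% and 0.724%) and with 50 kb bins (1.26% and 0.881%), and genes called lower were 1 with the upper 50% (all genes: 1.29%) and at equal number (0.74%). Density windows called higher numbered 1 with the replicate block, limma, median-window scaling or 10 Mb windows (all windows: 12.8% to 20.9%). They numbered 0 with the upper 50%, equal number, DESeq2 or 2 Mb windows (all windows: 8.72% to 14.5%). Those called lower were 0 at equal number (all windows: 7.63%) and with DESeq2 (7.79%). Coverage windows called were 0 higher and 2 lower with the upper 50% (all windows: 19.4% and 11.1%), and 0 and 0 at equal number (3.16% and 0.243%).

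With each library left out, the covered share differed by 0.784 to 3.26 points, that against other chromosomes by 0.0246 to 1.10, median width by -1 to 6 kb and relative density by -0.000888 to 0.00428. Chromosome 18 exceeded chromosome 19 by 13.4 to 14.4 points, and lay below the others by -4.33 to -3.67 kb in width and -1.36 to -1.33 reads per kb. Gained length ran from 2.94 to 4.68 Mb and lost length from 2.18 to 3.60 Mb, since a lone library then stands for its group. Calls ran from 1 to 47 bins higher (all bins: 1.67% to 11.97%) and 0 to 3 lower (0 to 2.80%), 0 to 6 genes higher (all genes: 3.61% to 13.02%) and 1 to 14 lower (4.22% to 7.76%), 0 to 1 density windows either way, and 1 to 5 coverage windows higher (all windows: 15.7% to 31.4%) and 0 to 1 lower (5.48% to 8.33%). In these fits the lone library is assumed to vary like the other group. The first window ran from 14.3 to 17.7 points and that from 75 Mb from -14.1 to -8.96.

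Same-numbered libraries did not deviate together (r = -0.01 over 12153 bins). With 2 libraries a group this cannot tell whether equal numbers share a batch or culture, and the labels do not say. With the replicate block the covered share differed by 2.02 points (exact permutation p = 0.5) and the window from 65 Mb did not pass (adjusted p = 0.0584). The total depth is unknown, and 2 libraries a group limit the precision.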
